A study of Mirounga angustirostris with 8 samples.

Results

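The genes described here encode the proteins of the large (60S) subunit of the cytosolic ribosome, and they were followed in the longissimus dorsi, a muscle of the back, of adult female northern elephant seals (NES). Members were taken by name from the deposited table: every symbol made of RPL or RPLP and a number, paralogs included and the mitochondrial MRPL genes left out, with at least 80 reads summed over the 8 libraries. Of 19404 named genes with a read, 50 symbols matched and 49 had enough reads. The remaining one, RPL10L, a retrogene of RPL10, had 2 to 6 reads in a post-molt library and 4 to 11 in a pre-molt library. All 49 members passed the filter on low counts and were among the 14315 genes tested. RPL17, RPL39L and RPL41 were not analysed here.

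The 60S subunit holds the catalytic center that joins amino acids and the tunnel through which the new chain leaves, and its proteins surround, fold and steady the ribosomal RNA that does the chemistry. In vertebrates most of these proteins come from 1 expressed gene each, and their mRNAs start with a terminal oligopyrimidine (TOP) tract that lets the mTORC1 pathway and the RNA-binding protein LARP1 set their translation and stability together. Skeletal muscle is known for changes in ribosome content with growth, disuse and food supply, and striated muscle of mice and humans has its own paralog, RPL3L.

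The question of the design was how muscle of NES differs after the weeks of molt, which the animals spend ashore, fasting and little active. The 4 post-molt libraries came from wild adult females, seals 4448, 5572, 9678 and X410, biopsied late in the molt. The labels give a mean of 34 days for the late sampling of the study as a whole, and the days of each of these 4 seals are not given in the sources used here. The 4 pre-molt libraries came from wild adult females, seals 5572, 5842, 6762 and C497, biopsied at most 5 days after they came ashore. Seal 5572 alone gave a library to each group, and the groups otherwise hold different animals, so that time cannot be told apart from differences among seals. The study kept for each time the samples with the most uniquely aligned reads, and all libraries were made from poly-A-selected RNA. The paper gives as the reason that low-quality RNA made some samples sequence poorly. Among the libraries kept, post-molt 9678 and pre-molt 5842 had the lowest shares of uniquely mapped reads in its alignment summary. Any part of RNA quality or alignment in the differences was not tested.

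Reads assigned to named genes totalled 30771344 to 61222301 in a post-molt library and 37900665 to 56143099 in a pre-molt library. A library had reads on 12678 to 18047 genes post-molt and on 14168 to 16820 pre-molt. The muscle fiber markers in the table, 6 of the 8 listed, summed to 167271 to 238221 CPM (the reads of a gene relative to the TMM-scaled size of its library) post-molt and 173837 to 286077 CPM pre-molt, while MYH7 and MYH2 were not analysed here. Of the 6 markers within that sum, 5 had negative fold changes and 1 a positive one, with a median log2 fold change of -0.43. Titin (TTN) varied widely, at 8440 ± 11273 CPM post-molt and 17064 ± 11747 CPM pre-molt (SD), with a log2 fold change of -1.02 ± 0.88. DES had -0.21 ± 0.22 and TNNT1 -0.09 ± 0.25. Myoglobin (MB) averaged 110525 ± 17567 CPM post-molt and 69238 ± 18794 CPM pre-molt, with a log2 fold change of 0.67 ± 0.23 (edgeR adjusted p = 0.248, DESeq2 adjusted p = 0.028). Skeletal actin (ACTA1) averaged 45182 ± 9792 CPM post-molt and 85950 ± 22330 CPM pre-molt without overlap, with -0.93 ± 0.25 (edgeR adjusted p = 0.123, DESeq2 adjusted p = 0.0040), and muscle creatine kinase (CKM) had -0.64 ± 0.25 (edgeR adjusted p = 0.321; SD, n = 4 each). Read counts differed far beyond sampling noise in all 28 pairs of libraries (chi-square divided by its degrees of freedom at least 98.9), so no library was a copy of another.

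For the large-subunit genes 2 libraries stood apart from the others of their group. The pre-molt library of seal 5842 had the highest pre-molt CPM in 46 of the 49 members and the highest of all 8 libraries in 45. The post-molt library of seal 4448 had the lowest post-molt CPM in 45 members and the lowest of all 8 in 44. The other 3 pre-molt libraries lay close together. The median coefficient of variation of a member was 36.4% over all pre-molt libraries and 13.4% without seal 5842. It was 21.1% over all post-molt libraries, seal 4448 included, so the last 2 values are not over like sets.

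Large-subunit genes took a smaller share of the reads in every post-molt library than in any pre-molt library. The share was 1.14% of reads in post-molt seal 4448, 1.47% in 5572, 1.34% in 9678 and 1.51% in X410. It was 1.93% in pre-molt seal 5572, 2.85% in 5842, 1.84% in 6762 and 1.87% in C497. The groups did not overlap, and the means were 1.37% ± 0.170 post-molt and 2.12% ± 0.487 pre-molt (SD, n = 4 each). Because a share is relative, it says nothing of the amount of ribosomal protein mRNA per fiber, and in a biopsy fewer cells of a type and less RNA per cell cannot be told apart.

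**Figure D1:**
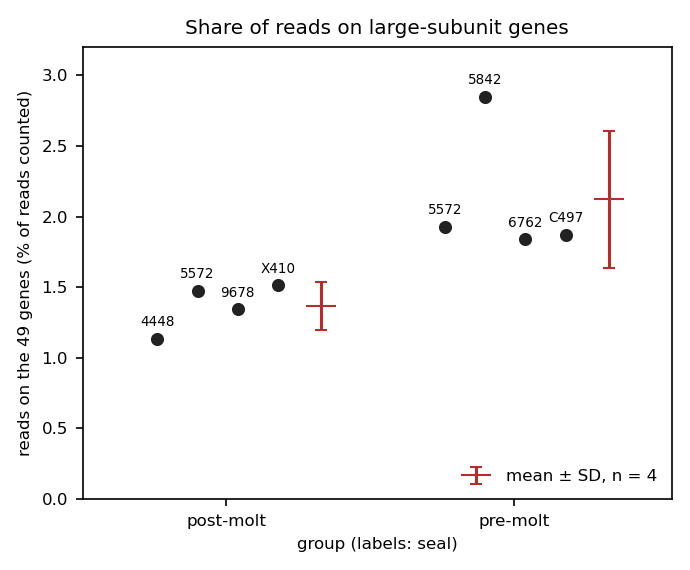
Share of all counted reads that fell on the 49 large-subunit genes (y axis, percent) in each post-molt and pre-molt library (x axis, points labelled by seal), with the group mean ± SD beside the points. The post-molt libraries lie between 1.14 and 1.51%, and the pre-molt libraries between 1.84 and 2.85%, with seal 5842 alone above 2%.

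Gene by gene, the fitted log2 fold change of post-molt over pre-molt was negative in 46 of the 49 members (93.9%, against 53.6% of all genes tested) and positive in 3. The median member had a log2 fold change of -0.83, or 0.564 of the pre-molt level, with quartiles of -1.01 and -0.67 and a range of -1.48 to 0.46. Over all genes tested the median was -0.04, with quartiles of -0.44 and 0.30. In 13 members the fold change was below -1 on the log2 scale, and the standard error of a member lay between 0.20 and 0.43.

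No single member passed the test in edgeR. The quasi-likelihood test with Benjamini-Hochberg adjustment over all genes called 0 members lower (background 0.133% of genes tested) and 0 higher (background 0.217%), and the smallest adjusted p of a member was 0.077. At an unadjusted p under 0.05, 40 members (81.6%) were lower, beside a background of 6.22%, and 0 were higher, beside a background of 5.2%. DESeq2 called 25 members lower (51.0%, background 3.16% of the 9993 genes to which it gave an adjusted p) and 0 higher (background 3.35%). limma-voom called 0 in either direction, with backgrounds of 0.272% lower and 0.384% higher. Whether a member was called thus depended on the tool.

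In 30 members (61.2%) every post-molt CPM was below every pre-molt CPM, which held for 5.11% of all genes tested, and in 0 members was every post-molt value above (background 4.04%). In the other 19 the groups overlapped. The count without overlap could not fall when pre-molt seal 5842 was left out, and it stayed at 30 members. That library held the lowest pre-molt value in 1 member only. Without that library the median log2 fold change of the members was -0.51 and 29 were lower at an unadjusted p under 0.05.

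**Figure D2:**
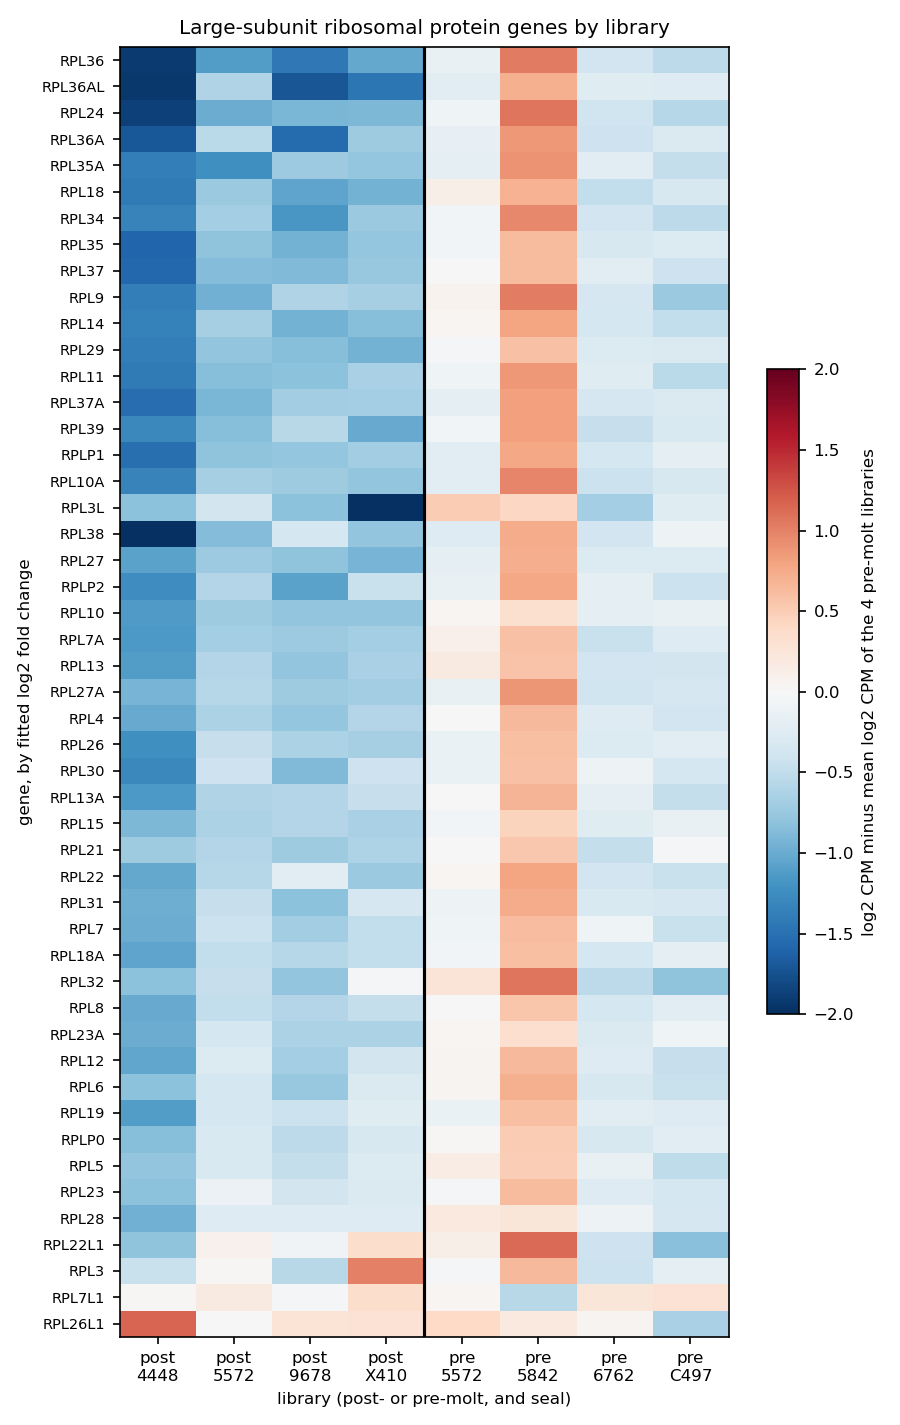
Each row is a large-subunit gene, ordered by fitted fold change, and each column a library, the 4 post-molt ones on the left of the black line and the 4 pre-molt ones on the right; color gives log2 CPM minus the mean log2 CPM of the pre-molt libraries. The median over members was -1.12 in post-molt seal 4448, -0.58 in 5572, -0.71 in 9678 and -0.65 in X410, against -0.02 in pre-molt seal 5572, 0.65 in 5842, -0.32 in 6762 and -0.34 in C497.

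The member with the most negative fold change was RPL36, a protein of eukaryotic ribosomes that has no bacterial counterpart. It measured 58.5, 101, 81.7 and 108 CPM in post-molt seals 4448, 5572, 9678 and X410, against 200.3, 453, 169.7 and 154 CPM in pre-molt seals 5572, 5842, 6762 and C497. The groups did not overlap, and the log2 fold change was -1.48 ± 0.34 (SE; edgeR adjusted p = 0.077, DESeq2 adjusted p = 0.0016). RPL24, which reaches across to the small subunit in an intersubunit bridge, had 127, 233, 246 and 249 CPM post-molt, against 437, 972, 352 and 312 CPM pre-molt, in the same order of seals, which is kept below. Its groups did not overlap either, with a log2 fold change of -1.28 ± 0.36 (edgeR adjusted p = 0.144). RPL35A, one of the genes mutated in the inherited red cell disorder Diamond-Blackfan anemia, had 47.4, 52.7, 74.7 and 72.2 CPM post-molt, against 108, 229, 105 and 89.0 CPM pre-molt. Again every post-molt value was below every pre-molt value, and the log2 fold change was -1.11 ± 0.30 (edgeR adjusted p = 0.127). Without pre-molt seal 5842 the log2 fold change was -0.98 for RPL36, -0.76 for RPL24 and -0.68 for RPL35A.

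RPL18 and RPL29 are further proteins that eukaryotes have and bacteria lack, and RPL29 is also known as a heparin-binding protein. RPL18 had 215, 341, 276 and 297 CPM post-molt, against 621, 934, 407 and 459 CPM pre-molt, without overlap. RPL29 had 214, 323, 309.7 and 289.6 CPM post-molt, against 549, 838, 459.9 and 459 CPM pre-molt, without overlap. The log2 fold changes were -1.10 ± 0.27 for RPL18 (edgeR adjusted p = 0.0924) and -1.02 ± 0.24 for RPL29 (edgeR adjusted p = 0.0804). With 1 library left out in turn they ranged from -1.25 to -0.79 for RPL18 and from -1.11 to -0.76 for RPL29. For RPL29 the other pre-molt libraries than that of seal 5842 lay within 459 to 549 CPM, all above the post-molt maximum of 323 CPM.

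RPL10 lies beside the tRNA sites of the catalytic center, is among the last proteins to join the subunit, and takes part in releasing its export adaptor NMD3. It had 1187, 1593, 1496 and 1499 CPM post-molt, against 2651, 3225, 2263 and 2340 CPM pre-molt. All post-molt values were well below the pre-molt minimum, and the spread within groups was small beside the difference, at 1444 ± 177 CPM post-molt and 2620 ± 437 CPM pre-molt (SD, n = 4 each). The log2 fold change was -0.86 ± 0.20, with an edgeR adjusted p of 0.080 and a DESeq2 adjusted p of 0.00028. With 1 library left out in turn it ranged from -0.92 to -0.72.

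The P-stalk is the arm of the subunit that recruits elongation factors, with RPLP0 as its anchor, pairs of RPLP1 and RPLP2 hanging from it and RPL12 at its base. All 4 genes had negative fold changes and an unadjusted p under 0.05, with a median of -0.75, but they differed in how far the groups lay apart. Of all members 81.6% were lower at that p, and of all genes tested 6.22%. RPLP1 had 396, 648, 660.3 and 693 CPM post-molt, against 960.2, 1932, 883 and 984 CPM pre-molt, and RPLP2 had 48.5, 76.6, 54.9 and 84.3 CPM post-molt, against 104, 195, 101 and 85.0 CPM pre-molt. The RPLP1 groups were well separated, with a log2 fold change of -0.99 ± 0.29 (edgeR adjusted p = 0.158), whereas for RPLP2 the gap was that of 84.3 in post-molt seal X410 to 85.0 in pre-molt seal C497, with -0.88 ± 0.28 (edgeR adjusted p = 0.206). RPLP0 had 479, 699, 599.9 and 689 CPM post-molt, against 883, 1226, 694 and 742 CPM pre-molt. RPL12 had 216, 368, 275 and 343 CPM post-molt, against 463, 698, 371 and 323 CPM pre-molt. Both overlapped between the groups in a narrow range, with log2 fold changes of -0.52 ± 0.23 for RPLP0 and -0.62 ± 0.27 for RPL12 (edgeR adjusted p = 0.396 and 0.377). Without pre-molt seal 5842 the log2 fold changes were -0.63 for RPLP1, -0.52 for RPLP2, -0.30 for RPLP0 and -0.33 for RPL12, and RPLP0 and RPL12 no longer had an unadjusted p under 0.05 (edgeR, 0.147 and 0.161).

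RPL5 and RPL11 enter the subunit together with 5S ribosomal RNA, and outside the ribosome the same particle binds MDM2, the ubiquitin ligase of p53. RPL11 had 139, 205, 211 and 236 CPM post-molt, against 351, 680.0, 313 and 256 CPM pre-molt, and RPL5 had 454, 637, 564 and 651 CPM post-molt, against 873, 1109, 709 and 555 CPM pre-molt. RPL11 did not overlap between the groups, while in RPL5 pre-molt seal C497 lay below 3 of the post-molt seals. The log2 fold change was -1.01 ± 0.30 for RPL11 (edgeR adjusted p = 0.165) and -0.49 ± 0.24 for RPL5 (edgeR adjusted p = 0.465). Without pre-molt seal 5842 they were -0.61 for RPL11 and -0.28 for RPL5. Whether these 2 fold changes differ from each other was not tested.

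At the mouth of the exit tunnel sit RPL19, RPL22, RPL23A, RPL26, RPL31, RPL35, RPL38 and RPL39, which meet the nascent chain or the factors that act on it. All 8 had negative fold changes, 7 of them at an unadjusted p under 0.05, with a median of -0.73 and a range of -1.05 for RPL35 to -0.55 for RPL19. Of all members 81.6% were lower at that p, and of all genes tested 6.22%. RPL39, a very small protein that lines the tunnel itself, had 15.7, 21.2, 26.1 and 19.2 CPM post-molt, against 37.1, 68.1, 27.9 and 31.3 CPM pre-molt. The groups did not overlap, and the log2 fold change was -0.998 ± 0.29 (edgeR adjusted p = 0.162). RPL26 had 162, 277, 243 and 239 CPM post-molt, against 348, 578, 314 and 328 CPM pre-molt, also without overlap, with -0.77 ± 0.25 (edgeR adjusted p = 0.208). Without pre-molt seal 5842 the log2 fold change was -0.62 for RPL39 and -0.50 for RPL26.

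The proteins can also be divided by ancestry, into those with counterparts in bacteria, archaea and eukaryotes and the core proteins that bacteria lack. Of 17 members shared by all domains of life, 16 had negative fold changes, 14 at an unadjusted p under 0.05, and 9 were without overlap, with a median of -0.74. Of the 27 core members that are not shared by all, 27 had negative fold changes, 24 at an unadjusted p under 0.05, and 20 were without overlap, with a median of -0.94. For comparison, 81.6% of all members and 6.22% of all genes tested were lower at an unadjusted p under 0.05. Lower without overlap were 61.2% of all members and 5.11% of all genes tested. The ranges were -1.05 to 0.10 for the shared members and -1.48 to -0.43 for the others, which overlap, and the difference between the medians was not tested. In the remaining 5 members, the paralogs, the range was the widest, from -1.39 for RPL36AL to 0.46 for RPL26L1.

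**Figure D3:**
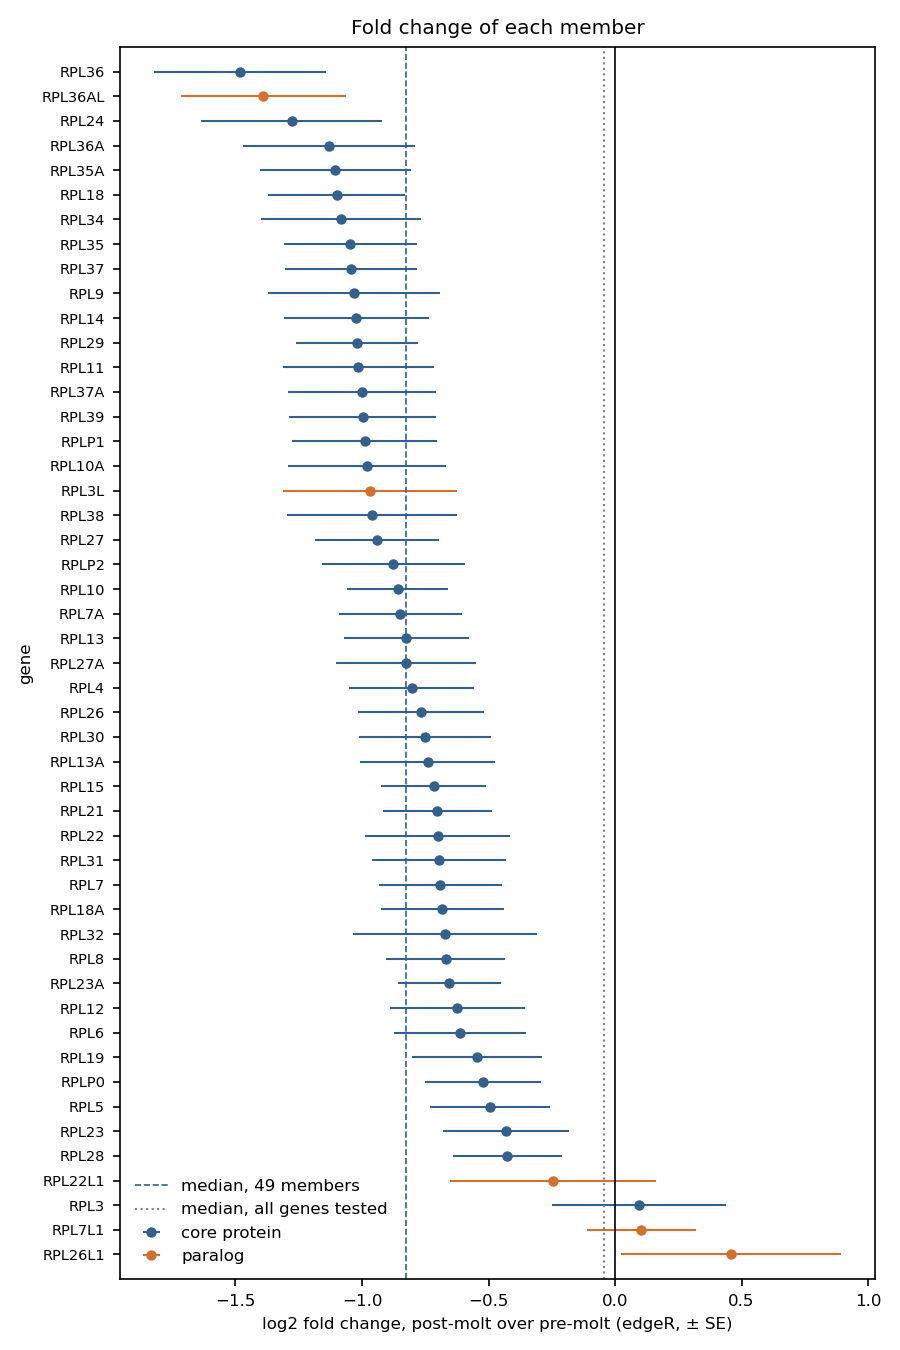
Fitted log2 fold change of post-molt over pre-molt (x axis, points, with bars of ± 1 SE) for each of the 49 genes (y axis), core genes and paralogs in different colors, with lines at 0, at the member median of -0.83 and at the median of all genes tested, -0.04. All but 4 genes lie between -1.48 and -0.43; RPL22L1, RPL3, RPL7L1 and RPL26L1 lie above that range, from -0.25 to 0.46.

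Leaving aside RPL22L1, RPL3, RPL7L1 and RPL26L1, the other 45 members lay between -1.48 and -0.43, the upper end being RPL23 and RPL28. RPL28, which vertebrates have and baker's yeast lacks, had 61.9, 101, 101 and 101 CPM post-molt, against 139, 143, 113 and 95.8 CPM pre-molt. The groups overlapped through pre-molt seal C497, and the log2 fold change was -0.43 ± 0.22 (edgeR adjusted p = 0.505), or -0.275 without post-molt seal 4448. Of the 44 core members, 43 had negative fold changes, and the exception was RPL3.

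RPL3, which reaches toward the catalytic center, had 86.6, 119.6, 80.2 and 238 CPM post-molt, against 115, 184, 87.4 and 104 CPM pre-molt. The post-molt library of seal X410 was above all others, and the means were 131 ± 73.5 CPM post-molt and 123 ± 42.6 CPM pre-molt (SD, n = 4 each), with a log2 fold change of 0.10 ± 0.34 (edgeR adjusted p = 0.958). Without post-molt X410 it was -0.36. RPL3L, which takes the place of RPL3 in ribosomes of adult heart and skeletal muscle in the mouse, had 409, 559, 407 and 179 CPM post-molt, against 1021, 963, 447 and 609.9 CPM pre-molt. The same seal X410 was lowest for RPL3L, and pre-molt seal 6762 lay within the post-molt range. The means were 388 ± 157 CPM post-molt and 760 ± 277 CPM pre-molt (SD, n = 4 each), with a log2 fold change of -0.97 ± 0.35 (edgeR adjusted p = 0.263, DESeq2 adjusted p = 0.0746).

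Reads on RPL3L for each read on RPL3 give the balance of the pair in a library in a way that no library scaling can change, although with gene lengths unknown the ratio can be compared between libraries only. The ratio was 4.73, 4.67, 5.07 and 0.749 post-molt, against 8.86, 5.22, 5.12 and 5.85 pre-molt. All post-molt ratios were below all pre-molt ratios, but 3 of them were close to the pre-molt ones and seal X410 was the only library with fewer reads on RPL3L than on RPL3. The difference of the mean log2 ratios, post-molt minus pre-molt, was -1.01 (1.60 ± 1.34 post-molt and 2.61 ± 0.37 pre-molt, SD, n = 4 each), with a two-sided exact permutation p of 0.029, the smallest that 4 libraries against 4 can give, and 0.095 adjusted over the 5 pairs compared. Without post-molt X410 the difference was -0.34 and the exact permutation p 0.114.

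RPL36A and its paralog RPL36AL encode nearly identical proteins that touch the end of the tRNA leaving the ribosome. RPL36A had 16.4, 36.6, 18.2 and 32.4 CPM post-molt, against 47.3, 96.4, 39.7 and 43.5 CPM pre-molt, and RPL36AL had 11.3, 28.2, 13.1 and 15.7 CPM post-molt, against 36.8, 70.2, 36.3 and 36.0 CPM pre-molt. Neither overlapped between the groups, and the log2 fold changes were -1.13 ± 0.34 (edgeR adjusted p = 0.177) for RPL36A, which was -0.72 without pre-molt seal 5842, and -1.39 ± 0.33 (edgeR adjusted p = 0.080) for RPL36AL. With 1 library left out in turn the RPL36AL fold change ranged from -1.74 to -1.07. Reads on RPL36AL per read on RPL36A were 0.69, 0.77, 0.72 and 0.49 post-molt, against 0.78, 0.73, 0.91 and 0.83 pre-molt. The difference of the mean log2 ratios was -0.30 (exact permutation p = 0.057, adjusted 0.095), and without post-molt X410 it was -0.16.

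RPL22 and RPL22L1, which can replace each other in the ribosome the first of which represses the second in mice, overlapped between the groups. RPL22 had 22.6, 30.7, 39.0 and 27.4 CPM post-molt, against 47.0, 78.8, 35.1 and 33.7 CPM pre-molt (log2 fold change -0.70 ± 0.29, edgeR adjusted p = 0.349), and its fold change was -0.35 without pre-molt seal 5842. RPL22L1 had 7.77, 14.4, 12.9 and 17.3 CPM post-molt, against 14.7, 29.8, 10.2 and 7.56 CPM pre-molt, a wide and overlapping spread (log2 fold change -0.25 ± 0.41, edgeR adjusted p = 0.901) whose sign turned to 0.30 without pre-molt seal 5842. Reads on RPL22L1 per read on RPL22 were 0.344, 0.469, 0.332 and 0.633 post-molt, against 0.313, 0.378, 0.290 and 0.224 pre-molt. The difference of the mean log2 ratios was 0.53 (exact permutation p = 0.114, adjusted 0.114).

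RPL26L1 and RPL7L1 are the remaining paralogs, the first nearly identical to RPL26 in protein sequence and the second a relative of RPL7 placed in assembly of the subunit by its yeast counterpart. RPL26L1 had 8.66, 3.89, 4.65 and 4.70 CPM post-molt, against 5.09, 4.42, 3.99 and 2.45 CPM pre-molt, and RPL7L1 had 49.4, 55.0, 47.2 and 61.7 CPM post-molt, against 49.7, 32.8, 57.1 and 58.8 CPM pre-molt. Both overlapped, with log2 fold changes of 0.46 ± 0.43 for RPL26L1 (edgeR adjusted p = 0.792) and 0.10 ± 0.21 for RPL7L1 (edgeR adjusted p = 0.923). RPL7 had 160.0, 235, 196 and 225 CPM post-molt, against 299.6, 488, 298 and 232 CPM pre-molt, with -0.69 ± 0.24 (edgeR adjusted p = 0.255), or -0.42 without pre-molt seal 5842. The RPL26L1 fold change was 0.15 without post-molt seal 4448. Reads on RPL26L1 per read on RPL26 differed by 1.18 in mean log2 ratio (exact permutation p = 0.057, adjusted 0.095) and by 0.78 without post-molt seal 4448. Reads on RPL7L1 per read on RPL7 differed by 0.78 (exact permutation p = 0.086, adjusted 0.107) and by 0.39 without pre-molt seal 5842. None of the 5 pairs passed 0.05 after adjustment.

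**Figure D4:**
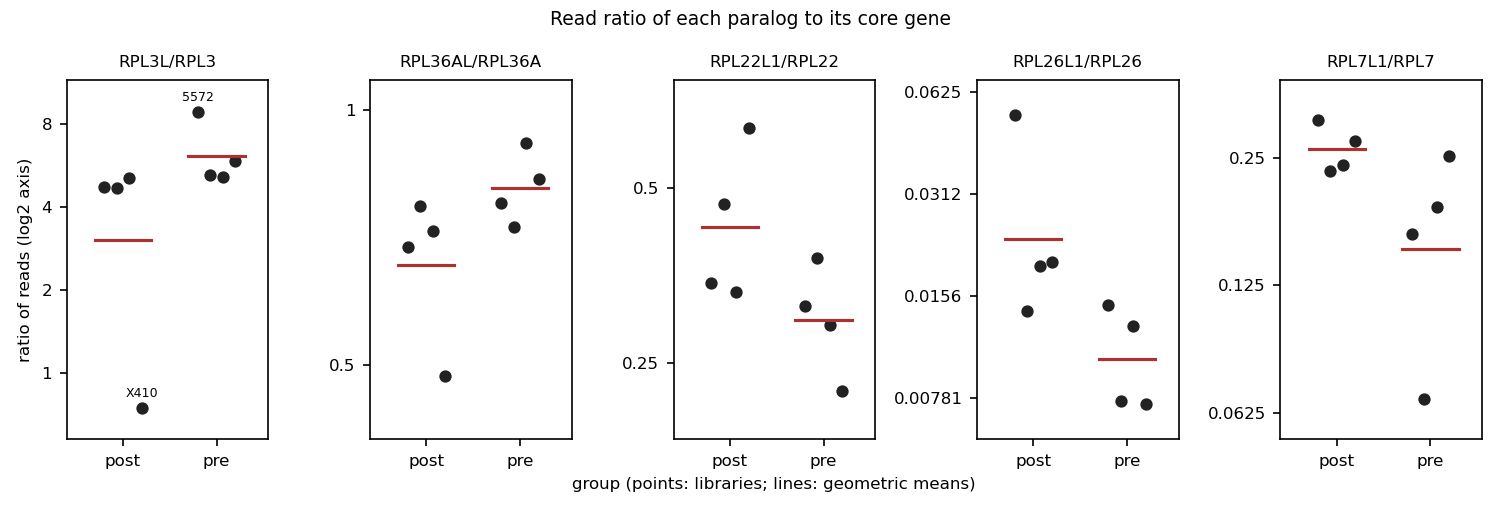
Reads on each paralog per read on its core gene (y axis, log2 scale) in the post-molt and pre-molt libraries (x axis, points), with the geometric mean of each group as a line, for RPL3L/RPL3, RPL36AL/RPL36A, RPL22L1/RPL22, RPL26L1/RPL26 and RPL7L1/RPL7. The post-molt point of seal X410 lies at 0.749 for RPL3L/RPL3, apart from the other libraries at 4.67 to 8.86.

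Seal 5572, sampled at both times, gave a comparison within 1 animal that has no replicate. Its log2 CPM was lower post-molt than pre-molt in 47 members and higher in 2, RPL3 by 0.05 and RPL7L1 by 0.15. The median difference over the members was -0.57 and the most negative was -1.04, in RPL35A, while over all genes tested the median was 0.003 and 49.6% were lower. Both libraries of this seal are also part of the group comparison. With both left out the median member log2 fold change was -0.91, and 36 members were lower at an unadjusted p under 0.05.

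Markers of connective tissue cells also had negative fold changes. All 6 fibroblast markers had negative fold changes, 4 of them at an unadjusted p under 0.05, with a median of -1.46, and their summed level was 169 to 443 CPM post-molt and 413 to 1355 CPM pre-molt, the last in seal 5842. Adipocyte markers summed to 7.29 to 30.4 CPM post-molt and 15.5 to 81.7 CPM pre-molt, again with seal 5842 at the top. The 3 of them that were tested had negative fold changes, with a median of -1.35. CIDEC had the most negative of these, -2.29 ± 0.45 (edgeR adjusted p = 0.054, DESeq2 adjusted p = 0.00016). Endothelial markers summed to 356 to 421 CPM post-molt and 395 to 533 CPM pre-molt, and macrophage markers, 5 of the 7 listed, to 19.8 to 38.0 CPM post-molt and 16.05 to 64.4 CPM pre-molt. Endothelial fold changes were negative in 4 markers and positive in 1 (median -0.24), and macrophage ones negative in 3 and positive in 2 (median -0.09). The most negative endothelial one was that of KDR, -1.45 ± 0.34 (edgeR adjusted p = 0.081, DESeq2 adjusted p = 0.0036). Erythroid markers were at or near 0 (0 to 1.39 CPM post-molt, 0 to 1.24 CPM pre-molt, with SLC4A1 at 0 in every library), and lymphocyte markers reached at most 3.58 CPM post-molt and 3.23 CPM pre-molt. The 2 mitochondrial ribosomal RNAs took 0.216 to 0.291% of reads post-molt and 0.270 to 0.510% pre-molt, and the 20 most abundant genes of a library 33.2 to 39.7% post-molt and 33.6 to 44.2% pre-molt. The part of these values in the differences of the large-subunit genes was not tested.

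Genes that work with the large subunit were counted from lists for comparison, and in each list edgeR called 0 members at an adjusted p under 0.05. Over all genes tested 53.6% were negative, and at an unadjusted p under 0.05 6.22% were lower and 5.2% higher. The proteins of the small cytosolic subunit had the same sign: 34 of 34 were negative, 31 at an unadjusted p under 0.05, with a median of -0.87, and DESeq2 called 15 lower. The large-subunit proteins of the mitochondrial ribosome were divided in sign, with 31 of 48 negative, 2 lower and 2 higher at an unadjusted p under 0.05, a median of -0.13, and shares lower and higher that were below those of all genes. DESeq2 called 1 of the 48 lower, beside a background of 3.16%, and it was MRPL10, which averaged 15.1 ± 4.84 CPM post-molt and 30.5 ± 3.06 CPM pre-molt (SD, n = 4 each; log2 fold change -1.02 ± 0.25, edgeR adjusted p = 0.084).

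Factors that assemble and export the 60S subunit had a median nearer to that of all genes than the proteins they assemble. Of 41 tested, 31 were negative, and the median was -0.20. At an unadjusted p under 0.05 there were 2, a smaller share than that of all genes, NSA2 (-0.59 ± 0.21) and EBNA1BP2 (-0.57 ± 0.22). By contrast, NSA2, EBNA1BP2, EFL1, MRTO4, GNL3 and WDR12 were lower post-molt without overlap, which held for 5.11% of all genes tested. The other factors overlapped between the groups. Among 12 genes that control translation of TOP mRNAs, including LARP1 and the mTORC1 subunits, 5 were negative and 7 positive, with a median of 0.13. EIF4EBP1, an inhibitor of cap-dependent initiation that mTORC1 phosphorylates, had a log2 fold change of -0.66 ± 0.23 (edgeR adjusted p = 0.263), and LARP4, which stabilizes poly-A tails, 0.50 ± 0.21 (edgeR adjusted p = 0.369). The list for elongation held 8 genes, namely elongation factors and 1 regulator, EEF2K, and 6 of the 8 were negative, 4 of them at an unadjusted p under 0.05, with a median of -0.55. EEF1A2, the muscle form of the factor that brings tRNA to the ribosome, had -0.85 ± 0.20 (edgeR adjusted p = 0.083), while the positive values were those of EIF5A (0.20 ± 0.19) and of EEF2K, the kinase that inhibits elongation factor 2, at 0.61 ± 0.21 (edgeR adjusted p = 0.248).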

How the data were processed

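Muscle RNA of 8 libraries (4 post-molt, 4 pre-molt) was analysed from read counts per gene, whole numbers that the authors deposited without scaling. Per the labels and the methods of the study, the authors used bcl2fastq 2.20, STAR on the Hawaiian monk seal genome with its NCBI annotation, R 3.4.3 and DESeq2 1.18.1, so reads of one seal species were counted on the genes of another. STAR's gene counts leave out reads that align to several places, which can lower genes with near-identical copies or pseudogenes, as ribosomal protein genes have, so that values of single members and paralogs are uncertain. The strand setting is not given in the sources used here, and reads of antisense genes cannot be told apart. The labels and the paper name different library kits. Of 24349 entries, 7 carry no gene name (0.0115 to 0.0153% of counts) and were left out.

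Genes were kept with filterByExpr (minimum count 10, minimum total 15), scaled by TMM and compared, post-molt over pre-molt and unpaired, by edgeR 4.0.16 (quasi-likelihood, R 4.3.3) over all 14315 genes. Adjustment was by Benjamini-Hochberg, and calls were made at 0.05. CPM are TMM-scaled, and log2 CPM used a prior count of 2. Fold changes are fitted values with the SE of the fit. Paralog read ratios were compared by two-sided exact permutation over 70 divisions of the libraries. DESeq2 1.42.0, limma-voom (limma 3.58.1), RLE and upper-quartile scaling, TMM factors without ribosomal protein genes, no filter and leaving out libraries were alternatives. The scripts were tested on simulated data with known changes. At the adjusted threshold edgeR recovered 10% of log2 changes of 1 and 53% of those of 2. DESeq2 recovered 30% and 63%, and limma-voom 9% and 52%. These rates are over changed genes of any spread. Where the spread between libraries (square root of the dispersion) was at most 0.35, edgeR recovered 23.8% and 97.6%. There DESeq2 recovered 57.1% and 100%, and limma-voom 21.4% and 95.2%. Calls that fell on unchanged genes were 5 of 68 in edgeR, 54 of 147 in DESeq2 and 3 of 64 in limma-voom. Each library of a group came from a different seal. The members, lists and tests were chosen with earlier results of these data known. Members named with their values were the paralogs and their core genes, the P-stalk and 5S particle genes, RPL10, RPL39, and the 5 each with the smallest p, the lowest and the highest fold change. Of the others, RPL19, RPL23 and RPL35 were named after their values were seen, as ends of ranges. The values of 1 further listed gene are not reported here.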

Additional observations from a re-analysis of the deposited data

Results flagged for a closer look

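Each series of 4 libraries, 62 in all, was searched for a library far from the other 3 of its group by Dixon's gap criterion, which chance meets in about 1 in 20 series, and 12 were found. The pre-molt library of seal 5842 was far above the others in 7 of them. It had 453 CPM of RPL36 (others 154 to 200.3), 96.4 CPM of RPL36A (39.7 to 47.3), 70.2 CPM of RPL36AL (36.0 to 36.8), 229 CPM of RPL35A (89.0 to 108), 578 CPM of RPL26 (314 to 348) and 1932 CPM of RPLP1 (883 to 984). Its share of reads on the 49 large-subunit genes was 2.85% (others 1.84 to 1.93%). The post-molt library of seal 4448 was far below the others for RPLP1 at 396 CPM (648 to 693), RPL24 at 127 CPM (233 to 249) and RPL28 at 61.9 CPM (101 in each of the others), and far above them for RPL26L1 at 8.66 CPM (3.89 to 4.70). The post-molt library of seal X410 had a log2 ratio of RPL3L to RPL3 reads of -0.42, against 2.22 to 2.34 in the other post-molt libraries. Most of these series share 1 of 2 libraries and are not separate observations.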

How the results depend on the processing

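The count of members called lower by edgeR, 0 as reported, was 2 with no filter on low counts (RPL36 and RPL36AL) and 25 with DESeq2; it was 0 with each library left out in turn (range 0 to 0). The members lower at an unadjusted p under 0.05, 40 as reported, ranged from 29 (without pre-molt 5842) to 44 (without pre-molt C497) with 1 library left out, and their median log2 fold change from -0.92 to -0.51. Under 2 alternatives chosen after seeing the data the count was 24 (pre-molt 5842 and post-molt 9678 left out, median -0.52) and 19 (post-molt X410 and 4448 left out, median -0.74). RLE, upper-quartile and TMM scaling without ribosomal protein genes gave 40 each. With 1 library left out, log2 ratio differences ranged from -1.26 to -0.34 for RPL3L/RPL3, -0.38 to -0.16 for RPL36AL/RPL36A, 0.35 to 0.66 for RPL22L1/RPL22, 0.78 to 1.42 for RPL26L1/RPL26 and 0.39 to 1.03 for RPL7L1/RPL7; without post-molt 5572, RPL3L/RPL3 (-1.22), RPL36AL/RPL36A (-0.38) and RPL26L1/RPL26 (1.42) had an exact permutation adjusted p of 0.048. Signs turned for RPL22L1 (0.30 without pre-molt 5842, 0.31 without it and post-molt 9678; range -0.47 to 0.30 with 1 library left out), RPL3 (-0.29 without post-molt X410 and 4448, -0.03 without pre-molt 6762, -0.36 without post-molt X410; range -0.36 to 0.39) and RPL7L1 (-0.027 without pre-molt 5842; range -0.027 to 0.20). The cause was not tested. Of the named members' fits, 14 passed only under another tool or filter, 12 with DESeq2 and 2 with no filter. No paired analysis was possible because the groups share 1 seal only. Depth was not limiting for most members, which had 1842 reads or more in all; RPL26L1 and RPL22L1 were the shallowest.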
